A study of Mus musculus with 8 samples.

Results

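The genes of mitochondrial ribosomal proteins were followed in liver cells of 8 C57BL/6 mice. The members were all gene symbols that begin with Mrpl or Mrps and a digit, are not marked as pseudogenes, and had at least 80 sense reads summed over the 8 libraries. This gave 78 of the 25229 symbols in the files. All mice were Ifih1-/-, and so without MDA5, a sensor of double-stranded RNA. All were Alb-Cre+ too: the albumin promoter drives their Cre recombinase, which is therefore active in hepatocytes. They differed at Adar1, the gene of an RNA-editing adenosine deaminase. Both alleles were floxed in 3 mice (flox/flox), 1 allele was floxed in 2 mice (wt/flox), and both alleles were wild type in 3 mice (wt/wt). In flox/flox and wt/wt, replicates 1, 2 and 3 are labelled as mice of 11, 9 and 7 weeks, and in wt/flox replicates 1 and 2 from mice of 11 and 9 weeks. The study asks how loss of Adar1 acts on the liver when MDA5 is absent. The design text gives n = 2 for flox/flox, but 3 samples are labelled so and none was left out.

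Mitochondria have ribosomes of their own, which translate the few mRNAs encoded by mitochondrial DNA, all of them for subunits of the respiratory chain and ATP synthase. The RNA of these ribosomes is encoded in the mitochondrion, while every protein of their large and small subunits is encoded in the nucleus, made in the cytosol and imported. Some of these proteins have a counterpart in the bacterial ribosome, and others are specific to mitochondria. Hepatocytes are rich in mitochondria, which carry out fatty acid oxidation and parts of the urea cycle and of gluconeogenesis. Of the 78 genes, 51 encode proteins of the large subunit, 30 with a counterpart in bacteria and 21 specific to mitochondria. Proteins of the small subunit are encoded by 26 genes, 16 with a counterpart in bacteria and 10 specific to mitochondria. Symbols do not always give the subunit: Mrps30 and Mrps18a are named for the small subunit but encode proteins of the large one. The remaining gene, Mrps36, was named as ribosomal and is now assigned to the 2-oxoglutarate dehydrogenase complex of the citric acid cycle.

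The promoters of these genes are known for sites of nuclear respiratory factor 1 (NRF1), of ETS factors such as GABP, and of YY1. RefSeq promoter windows on GRCm38.p6, from 250 bases before to 50 bases after a transcription start, were matched to 69 of the 78 members, with 75 windows in all. Not matched were Mrpl13, Mrpl15, Mrpl19, Mrpl38, Mrpl4, Mrpl54, Mrps28, Mrps34 and Mrps35. The windows below, each read 5′ to 3′ on the gene's strand, are those of the gene with the largest fall (Mrpl52), the gene of highest level (Mrpl12), a gene that shares its upstream region with another mitochondrial translation gene (Mrps12), and the 2 members whose fold change was not below 0 (Mrpl18 and Mrpl3). Capitals mark the letters CGCANGCG (NRF1), CCGGAAG (ETS) and AAGATGGC (YY1) on either strand, and no marked motif overlaps another. They lie on GRCm38.p6 at chr14:54426659-54426958 on the plus strand for Mrpl52, chr11:120484387-120484686 on the plus strand for Mrpl12, chr7:28741772-28742071 on the minus strand for Mrps12, chr17:12916042-12916341 on the minus strand for Mrpl18, and chr9:105053018-105053317 on the plus strand for Mrpl3.
Mrpl52: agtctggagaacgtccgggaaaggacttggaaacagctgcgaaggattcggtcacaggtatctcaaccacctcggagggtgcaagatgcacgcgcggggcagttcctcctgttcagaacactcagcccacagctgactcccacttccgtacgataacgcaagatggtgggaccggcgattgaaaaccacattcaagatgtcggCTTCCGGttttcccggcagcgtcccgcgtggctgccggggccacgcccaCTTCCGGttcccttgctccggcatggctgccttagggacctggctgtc
Mrpl12: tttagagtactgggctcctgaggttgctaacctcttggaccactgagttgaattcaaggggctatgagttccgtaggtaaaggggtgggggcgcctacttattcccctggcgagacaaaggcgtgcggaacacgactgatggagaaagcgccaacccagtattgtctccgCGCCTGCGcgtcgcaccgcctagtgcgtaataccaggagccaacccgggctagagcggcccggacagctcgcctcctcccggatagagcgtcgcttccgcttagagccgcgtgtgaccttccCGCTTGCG
Mrps12: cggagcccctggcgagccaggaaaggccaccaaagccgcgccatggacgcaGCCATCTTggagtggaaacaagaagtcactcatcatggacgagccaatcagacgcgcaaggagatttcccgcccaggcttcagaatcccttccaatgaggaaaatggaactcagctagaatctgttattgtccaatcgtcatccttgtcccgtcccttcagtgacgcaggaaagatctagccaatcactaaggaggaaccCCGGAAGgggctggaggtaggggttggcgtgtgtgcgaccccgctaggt
Mrpl18: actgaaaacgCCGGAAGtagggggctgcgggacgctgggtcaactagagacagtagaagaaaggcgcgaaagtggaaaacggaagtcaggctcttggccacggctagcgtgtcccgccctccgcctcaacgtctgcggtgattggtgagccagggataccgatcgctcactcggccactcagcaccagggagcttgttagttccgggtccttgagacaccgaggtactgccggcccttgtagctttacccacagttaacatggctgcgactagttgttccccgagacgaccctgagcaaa
Mrpl3: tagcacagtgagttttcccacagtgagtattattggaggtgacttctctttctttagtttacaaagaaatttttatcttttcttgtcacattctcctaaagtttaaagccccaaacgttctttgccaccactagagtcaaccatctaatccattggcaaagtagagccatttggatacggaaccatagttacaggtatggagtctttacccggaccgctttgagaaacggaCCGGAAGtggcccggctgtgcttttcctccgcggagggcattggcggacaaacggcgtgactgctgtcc

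The NRF1 letters were found in 20 of the 75 member windows (26.7%), against 8.21% of all 32851 RefSeq windows of the same length. Those of the ETS motif were in 26 member windows (34.7%), against 8.86% of all windows, and those of the YY1 motif in 12 (16.0%), against 2.75%. At least 1 of the 3 was in 44 member windows (58.7%), against 17.6% of all windows. A match is a run of letters and not a measured binding site. Both Mrpl52, which fell most, and Mrpl18 and Mrpl3, which did not fall, carry the ETS letters. Over the 69 matched members, the median log2 fold change of flox/flox against wt/wt was -0.82 with the NRF1 letters and -0.87 without, -0.92 with the ETS letters and -0.82 without, and -0.97 with the YY1 letters and -0.84 without. With any of the 3 it was -0.91, and with none -0.78.

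Liver cells were released by collagenase perfusion, pelleted at low speed, freed of red cells and passed over Percoll, which enriches hepatocytes. RNA was depleted of ribosomal RNA and sequenced in strand-specific libraries, and 1 library came from each mouse. Sense reads in genes numbered 98337152 to 132303735 in flox/flox, 75875711 to 96405090 in wt/flox and 82967317 to 103970706 in wt/wt. The deposited tables of flox/flox and wt/flox bear a mark of a second batch that those of wt/wt lack, so genotype and batch cannot be told apart in any comparison with wt/wt. The comparison of flox/flox with wt/flox lies within that batch. Reads in no gene made up 34.5% to 40.0% of sense reads in flox/flox, 31.7% to 37.3% in wt/flox and 22.2% to 28.1% in wt/wt. Reads without a unique alignment went the other way. Of the total with them included, they made up 3.92% to 4.32% in flox/flox, 4.89% to 4.98% in wt/flox and 8.97% to 10.9% in wt/wt. The part of these differences in the results below was not tested. Adar itself had 49.4, 35.9 and 42.0 CPM in flox/flox, 22.0 and 31.8 CPM in wt/flox, and 28.1, 30.0 and 53.6 CPM in wt/wt, and its log2 fold change of flox/flox against wt/wt was 0.19 (SE 0.27, edgeR adjusted p = 0.626). These gene-level counts also take in exons that Cre leaves in place, so they do not check the deletion. Ifih1 had 0 to 4 reads in every library. The sex labels were contradicted by sex-specific transcripts in 2 of 8 libraries, flox/flox replicates 1 and 2, so sex was left out of the model. Were these 2 libraries exchanged, their replicate numbers and ages would be too, and neither enters the model. The 10 hepatocyte markers, such as Alb, summed to 170600 to 248700 CPM in flox/flox, 157700 to 179200 CPM in wt/flox and 104000 to 126300 CPM in wt/wt, with none at 0 and 3 of 10 called higher in flox/flox than in wt/wt. The 8 markers of sinusoidal endothelial cells summed to 65.6 to 140 CPM in flox/flox, 77.0 to 85.6 CPM in wt/flox and 157 to 248 CPM in wt/wt, with 6 of 8 lower in flox/flox, and the 9 Kupffer cell markers to 24.8 to 89.4 CPM in flox/flox, at most 26.0 CPM in wt/flox and 46.9 to 208 CPM in wt/wt, with none of the 9 called by edgeR. Beside these marker counts, 15.1% of all genes tested were called higher and 14.7% lower in flox/flox than in wt/wt. The part of these cell types in the results below was not tested. In bulk RNA, fewer cells of a type and less RNA per cell cannot be told apart.

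All 78 genes passed the filter on low counts. Levels, as RPKM computed here from principal transcript lengths and averaged over the 8 libraries, spanned 1.27 for Mrps25, a mitochondria-specific protein of the small subunit, to 35.9 for Mrpl12, the stalk protein that recruits translation factors to the large subunit. Summed over the members, levels in CPM (counts scaled to TMM-adjusted library size) were 935, 944 and 793 in flox/flox, 1111 and 1006 in wt/flox, and 1569, 1762 and 1437 in wt/wt. Every flox/flox library was below both wt/flox libraries, and both wt/flox libraries were below every wt/wt library. The sums averaged 891 ± 84.9 CPM in flox/flox (SD, n = 3), 1059 ± 74.3 CPM in wt/flox (n = 2) and 1589 ± 163 CPM in wt/wt (n = 3).

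**Figure D1:**
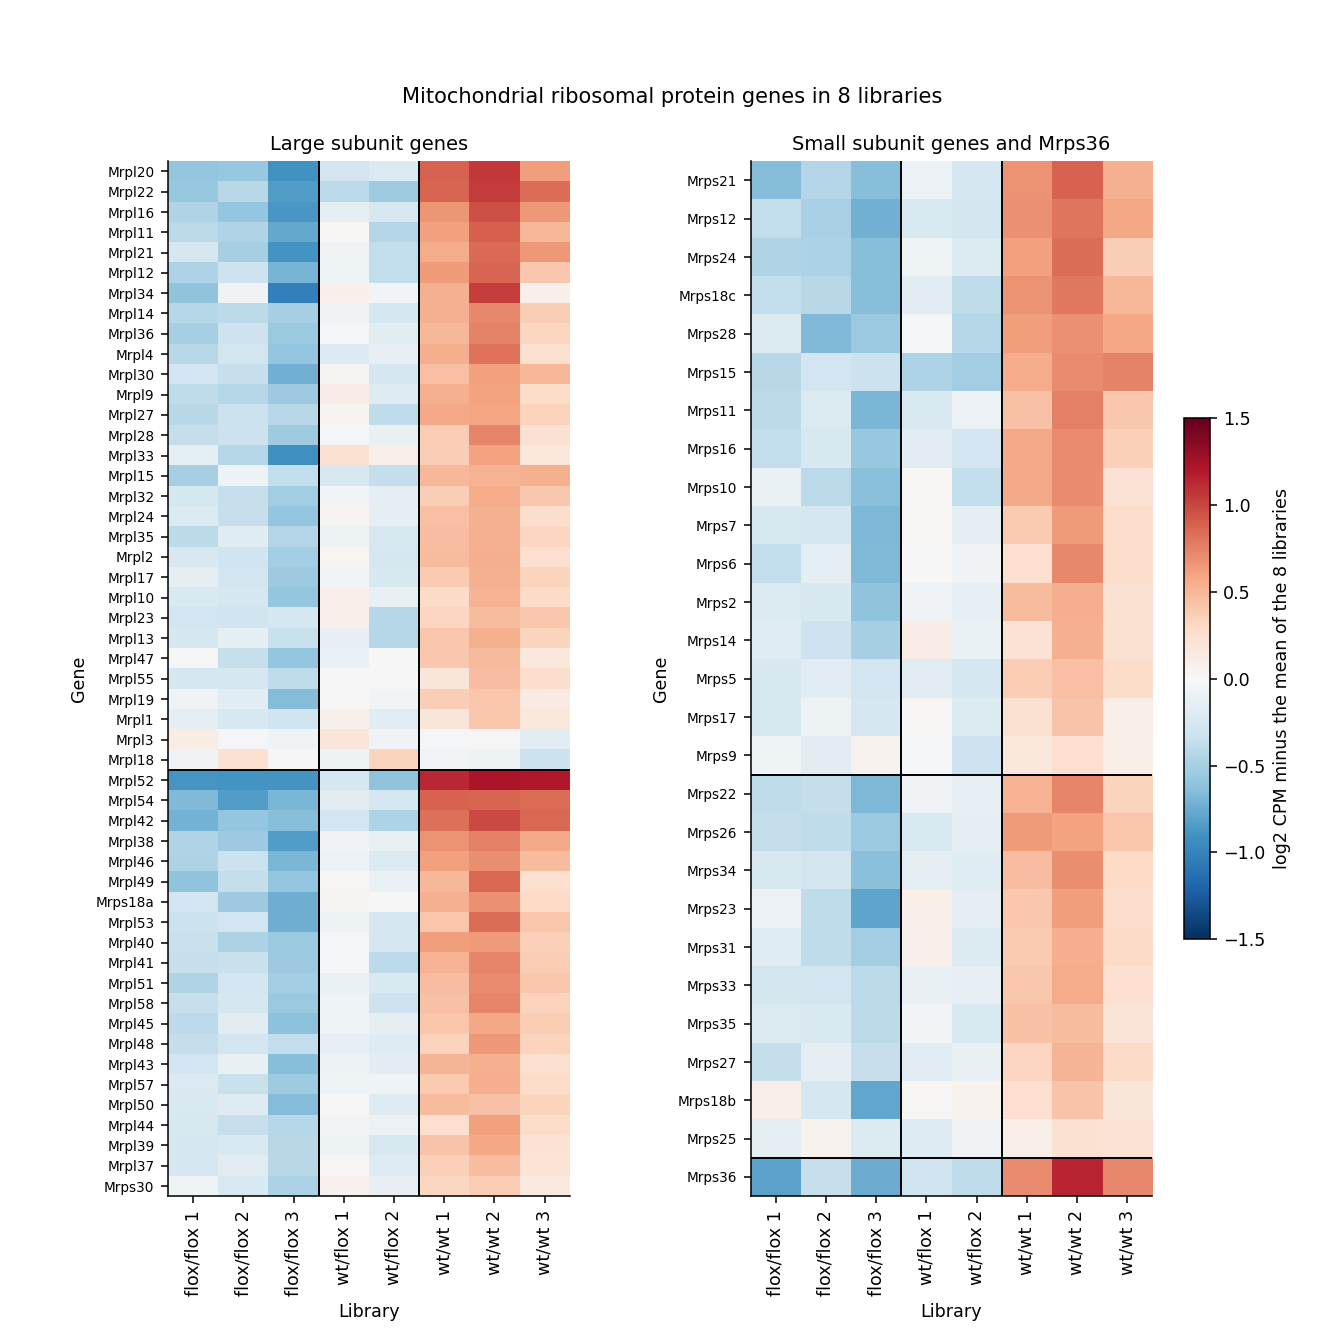
Heat map of 78 genes (rows, grouped by subunit and by counterpart in bacteria above and mitochondria-specific below within each panel) in 8 libraries (columns). Colour gives log2 CPM minus the gene's mean over the 8 libraries; nearly all rows are blue in the 3 flox/flox libraries and red in the 3 wt/wt libraries, and Mrpl3 and Mrpl18 are the exceptions among large subunit genes.

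In flox/flox against wt/wt, 73 of the 78 genes fell, none rose and 5 did not pass the test (edgeR quasi-likelihood F test, Benjamini-Hochberg adjusted over 14728 genes, threshold 0.05). Of all genes tested, 14.7% were lower and 15.1% higher, 29.9% in all. The median log2 fold change of the members was -0.86, with quartiles at -1.02 and -0.72, against 0.02 over all genes. Libraries of the 2 groups did not overlap for 76 members, all lower in flox/flox, against 22.0% of all genes not overlapping in that direction. The fall took in both subunits: 49 of 51 large subunit genes (median -0.86) and 23 of 26 small subunit genes (median -0.83) were lower. Of the genes counted as having a counterpart in bacteria, 43 of 46 were lower, and of those counted as mitochondria-specific, 29 of 31. All 21 mitochondria-specific genes of the large subunit fell, by between 0.53 and 2.08 on the log2 scale.

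Mrpl52, a mitochondria-specific protein of the large subunit, showed the largest fall of all members. It had 4.40, 4.36 and 4.36 CPM in flox/flox libraries, 6.79 and 5.35 CPM in wt/flox libraries, and 17.9, 19.0 and 18.8 CPM in wt/wt libraries. The 3 groups did not overlap, and the flox/flox libraries were nearly equal to each other. Its level was 4.24-fold lower in flox/flox than in wt/wt (log2 fold change -2.08 with SE 0.12, adjusted p = 0.000599 by edgeR). Its transcript, of 418 bases, was the shortest of the members. Mrpl54, another mitochondria-specific protein of the large subunit, had 3.44, 3.03 and 3.36 CPM in flox/flox libraries, 4.88 and 4.54 CPM in wt/flox libraries, and 10.0, 9.93 and 9.71 CPM in wt/wt libraries, and its log2 fold change was -1.59 (SE 0.12, edgeR adjusted p = 0.000608). Mrpl42, also specific to mitochondria, had 6.80, 7.46 and 7.15 CPM in flox/flox libraries, 9.15 and 8.04 CPM in wt/flox libraries, and 19.8, 22.0 and 20.1 CPM in wt/wt libraries. As in Mrpl54, the order of the groups was kept with no overlap.

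Among large subunit proteins that bacteria share, the falls were largest in Mrpl20, Mrpl22 and Mrpl16. Mrpl20, whose bacterial counterpart is needed for assembly of the large subunit, had 6.08, 6.20 and 4.90 CPM in flox/flox libraries, 7.56 and 7.88 CPM in wt/flox libraries, and 17.0, 19.2 and 14.2 CPM in wt/wt libraries, a 2.93-fold lower level in flox/flox than in wt/wt. Mrpl22, which lines the tunnel through which the new protein leaves, had 4.46, 4.97 and 3.72 CPM in flox/flox libraries, 5.04 and 4.60 CPM in wt/flox libraries, and 12.2, 13.7 and 11.9 CPM in wt/wt libraries, so that flox/flox and wt/flox overlapped while both lay below wt/wt. Mrpl16 had 9.50, 8.66 and 7.07 CPM in flox/flox libraries, 11.7 and 11.0 CPM in wt/flox libraries, and 20.6, 25.4 and 20.4 CPM in wt/wt libraries. The log2 fold changes of flox/flox against wt/wt were -1.55 for Mrpl20, -1.52 for Mrpl22 and -1.40 for Mrpl16, with edgeR adjusted p of 0.00126, 0.00124 and 0.00146.

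Mrpl12 and Mrpl11 form part of the site where translation factors bind and use GTP. Mrpl12 had 32.0, 35.5 and 27.1 CPM in flox/flox libraries, 42.0 and 34.1 CPM in wt/flox libraries, and 68.5, 80.6 and 58.2 CPM in wt/wt libraries. The wt/wt libraries stood above all others, and the flox/flox and wt/flox libraries overlapped. Its log2 fold change of flox/flox against wt/wt was -1.13 (SE 0.16, edgeR adjusted p = 0.00327), and that of Mrpl11 was -1.21 (SE 0.18, edgeR adjusted p = 0.00341). Mrps30 fell by the least of the 21 mitochondria-specific genes of the large subunit. It had 16.1, 14.4 and 12.2 CPM in flox/flox libraries, 17.6 and 15.6 CPM in wt/flox libraries, and 21.1, 21.9 and 18.7 CPM in wt/wt libraries (log2 fold change -0.53 with SE 0.14, adjusted p = 0.0225 by edgeR).

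In the small subunit the largest fall was that of Mrps21, with 5.44, 6.25 and 5.47 CPM in flox/flox libraries, 7.98 and 7.09 CPM in wt/flox libraries, and 13.6, 15.7 and 12.3 CPM in wt/wt libraries (log2 fold change -1.28 with SE 0.14, adjusted p = 0.00145 by edgeR). Mrps12, the counterpart of a bacterial protein at the decoding centre, had 9.51, 8.76 and 7.46 CPM in flox/flox libraries, 10.4 and 10.1 CPM in wt/flox libraries, and 19.7, 21.4 and 18.3 CPM in wt/wt libraries. None of the 3 groups overlapped in Mrps12, although flox/flox and wt/flox lay close together. Its log2 fold change was -1.21 (SE 0.13, edgeR adjusted p = 0.00142).

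Mrps18a, Mrps18b and Mrps18c descend from the gene of 1 bacterial ribosomal protein and take different places in the mammalian mitochondrial ribosome. Despite this descent, Mrps18a and Mrps18b are counted here as mitochondria-specific, and only Mrps18c as having a counterpart in bacteria. Mrps18c, which holds the bacterial place in the small subunit, had 6.85, 6.65 and 5.68 CPM in flox/flox libraries, 7.91 and 6.83 CPM in wt/flox libraries, and 14.2, 15.3 and 12.5 CPM in wt/wt libraries. Mrps18a, in the large subunit, had 8.56, 7.17 and 6.27 CPM in flox/flox libraries, 10.7 and 10.5 CPM in wt/flox libraries, and 15.1, 16.7 and 12.9 CPM in wt/wt libraries. Mrps18b, in the small subunit, had 19.4, 15.1 and 10.6 CPM in flox/flox libraries, 18.4 and 18.8 CPM in wt/flox libraries, and 21.5, 24.4 and 20.5 CPM in wt/wt libraries. The wt/wt libraries were highest in all 3 genes, and Mrps18b spread most widely among the flox/flox libraries. Mrps18c and Mrps18a fell in flox/flox against wt/wt (log2 fold change -1.13 and -1.02, SE 0.14 and 0.15, edgeR adjusted p = 0.002 and 0.0036), while Mrps18b did not pass the test (log2 fold change -0.56 with SE 0.21, adjusted p = 0.0753 by edgeR). Whether the 3 genes differed in their response was not tested.

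Mrps36, the member that is not part of the ribosome, had 1.18, 1.62 and 1.23 CPM in flox/flox libraries, 1.66 and 1.58 CPM in wt/flox libraries, and 3.35, 4.53 and 3.38 CPM in wt/wt libraries (log2 fold change -1.48 with SE 0.22, adjusted p = 0.00356 by edgeR). It is the member with the most named pseudogenes, 3, so reads shared with these copies make its level uncertain.

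The 5 genes that did not pass the test were Mrpl3, Mrpl18, Mrps9, Mrps18b and Mrps25. Mrpl18, a large subunit protein whose bacterial counterpart binds the smallest ribosomal RNA, had 30.6, 37.2 and 31.8 CPM in flox/flox libraries, 30.1 and 40.0 CPM in wt/flox libraries, and 30.8, 30.1 and 25.4 CPM in wt/wt libraries, and the groups overlapped (log2 fold change 0.21 with SE 0.15, adjusted p = 0.314 by edgeR). Mrpl3, of the large subunit, had 17.0, 15.4 and 15.1 CPM in flox/flox libraries, 17.8 and 15.0 CPM in wt/flox libraries, and 15.5, 15.9 and 13.8 CPM in wt/wt libraries (log2 fold change 0.07 with SE 0.12, adjusted p = 0.679 by edgeR). Mrps9, of the small subunit, had 11.2, 10.5 and 12.2 CPM in flox/flox libraries, 11.5 and 9.46 CPM in wt/flox libraries, and 13.2, 14.0 and 12.4 CPM in wt/wt libraries, so that wt/wt lay just above the others (log2 fold change -0.23 with SE 0.12, adjusted p = 0.197 by edgeR). In Mrps25 the flox/flox libraries lay at 6.97, 7.96 and 6.64 CPM, the wt/flox libraries at 6.71 and 7.37 CPM, and the wt/wt libraries at 8.11, 8.97 and 8.93 CPM (log2 fold change -0.27 with SE 0.12, adjusted p = 0.131 by edgeR).

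**Figure D2:**
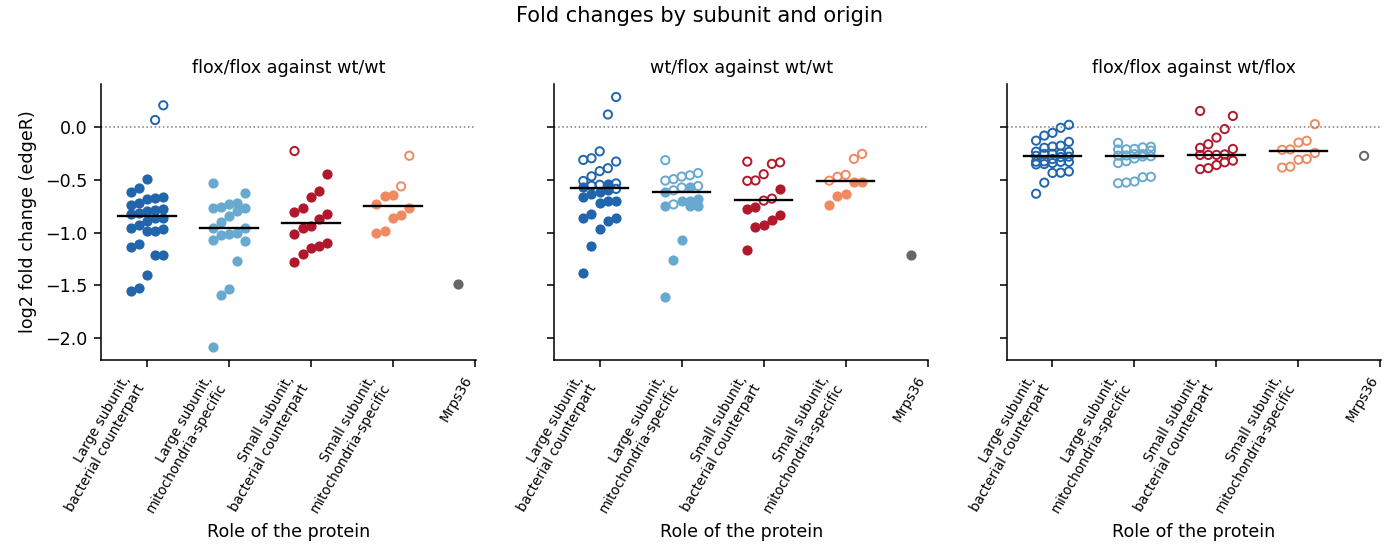
log2 fold change of each gene (points) in 3 comparisons (panels), by subunit and by whether the protein has a counterpart in bacteria. Filled points passed the edgeR test at an adjusted p of 0.05, open points did not, and black lines are medians; 73, 41 and 0 points are filled in the 3 panels.

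In wt/flox against wt/wt, 41 of the 78 genes fell, none rose and 37 did not pass the test, where 5.89% of all genes tested were lower and 6.58% higher. The median log2 fold change of the members was -0.59, against -0.06 over all genes. This count rests on few libraries, and so does the count over all genes, 1837 as reported. Leaving out either wt/flox library made the members' count 0, with 0 of all genes called. The members' count was 8 with wt/wt replicate 1 left out (393 of all genes called), 2 with wt/wt replicate 2 left out (38 of all genes), and 25 with flox/flox replicate 2 left out (1237 of all genes), a library that enters through the shared estimate of spread. The members' median stayed between -0.66 and -0.51. The members' count was also 0 with the replicate number and the sex read from transcripts both in the model. The count over all genes in that model is not given here. The 8 called genes of largest fall were Mrpl52, Mrpl22, Mrpl42, Mrps36, Mrps15, Mrpl20, Mrpl54 and Mrpl16, with log2 fold changes between -1.61 (Mrpl52, SE 0.14, edgeR adjusted p = 0.00833) and -0.96 (Mrpl16, SE 0.17, edgeR adjusted p = 0.017). Mrps15, a small subunit protein that bacteria share, had 4.50, 4.92 and 4.79 CPM in flox/flox libraries, 4.34 and 4.16 CPM in wt/flox libraries, and 8.82, 9.77 and 9.98 CPM in wt/wt libraries. It was the only member with both wt/flox libraries below every flox/flox library. Mrpl12, Mrpl11, Mrps12 and Mrps18c also fell in wt/flox, by 0.86, 0.86, 0.94 and 0.92 on the log2 scale. Mrps18a had a log2 fold change of -0.49 (edgeR adjusted p = 0.0976) and Mrps30 one of -0.31 (edgeR adjusted p = 0.202), and neither passed the test. Smallest in size were the log2 fold changes of Mrpl3 (0.12), Mrpl33 (-0.23) and Mrps18b (-0.25). The comparisons of flox/flox and of wt/flox share the wt/wt libraries, so their values are set side by side here and not as separate evidence.

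In flox/flox against wt/flox, which lies within 1 batch, no member passed the test, and none of the 14728 genes did with edgeR. At an unadjusted p of 0.05, 1240 genes (8.42%) were called. DESeq2 called 75 genes and limma-voom 0, with no member among them in either. The members leaned in 1 direction all the same: 74 of 78 log2 fold changes were below 0, against 45.5% of all genes. Their median was -0.26, against 0.04 over all genes, and these values too moved with transcript length, as given below. At an unadjusted p of 0.05, 12 members were lower and none higher, where 3.85% of all genes were lower. The 2 groups did not overlap for 42 members, 41 of them lower in flox/flox, where 13.1% of all genes were lower without overlap. The smallest p-values were those of Mrpl54 (log2 fold change -0.52, SE 0.13), Mrpl38 (-0.51, SE 0.14), Mrpl52 (-0.47, SE 0.13) and Mrps18a (-0.53, SE 0.17), each with an edgeR adjusted p of 0.558. Mrpl38, a mitochondria-specific protein of the large subunit, had 17.9, 16.8 and 13.7 CPM in flox/flox libraries, 23.6 and 22.5 CPM in wt/flox libraries, and 38.9, 41.3 and 36.2 CPM in wt/wt libraries, in 3 separate ranges. Mrpl15, Mrps5 and Mrpl13 changed least between flox/flox and wt/flox, with log2 fold changes of -0.0049, -0.02 and 0.02. A p above the threshold does not show that the 2 groups were alike. The groups also differed in sex and age. Both wt/flox mice were male by label and by transcripts, and are labelled 11 and 9 weeks. By transcripts, flox/flox replicates 2 and 3 were female, and replicate 3 is labelled 7 weeks. Replicate 3 had the lowest summed level of the members in flox/flox (793 CPM) and in wt/wt (1437 CPM). The part of sex and age in the members' lean was not tested, and the 78 genes come from the same mice.

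Transcript length moved with the fold change across all genes. The members' transcripts, taken as the principal transcript in GENCODE M21, had a median length of 1302 bases, against 2996 bases for other protein-coding genes. Among members, Spearman's rho between length and log2 fold change of flox/flox against wt/wt was 0.59 over 78 genes of the same 8 libraries, given as a description. Members of at least 2500 bases had a median log2 fold change of -0.74 (19 of 21 lower), against 0.14 for 8141 other genes of that length (7.00% lower). From 1500 to under 2500 bases the medians were -0.77 for 10 members and -0.15 for 3137 other genes, and from 1000 to under 1500 bases -0.85 for 22 members and -0.49 for 1251 others. From 600 to under 1000 bases they were -1.02 for 22 members and -0.74 for 599 others, and below 600 bases -1.28 for 3 members and -1.06 for 125 others. The members' median was thus the lower one in all 5 bins, and the gap was widest in the bin of at least 2500 bases. That bin has no upper limit. Its longest member has 7300 bases and its longest other gene 123179, so lengths are not matched within it. With the trend with length removed from the counts, 52 members were lower in flox/flox than in wt/wt and 1, Mrpl18, was higher, with a median log2 fold change of -0.59, where 11.3% of all genes were lower. In wt/flox against wt/wt, 16 members were then lower, where 2.11% of all genes were. Within the batch, in flox/flox against wt/flox, Spearman's rho among members was 0.42. Below 600 bases the medians there were -0.47 for members and -0.21 for other genes, and at 2500 bases or more -0.19 and 0.06. With the length trend removed, the members' median in that comparison was -0.19, against 0.04 over all genes.

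**Figure D3:**
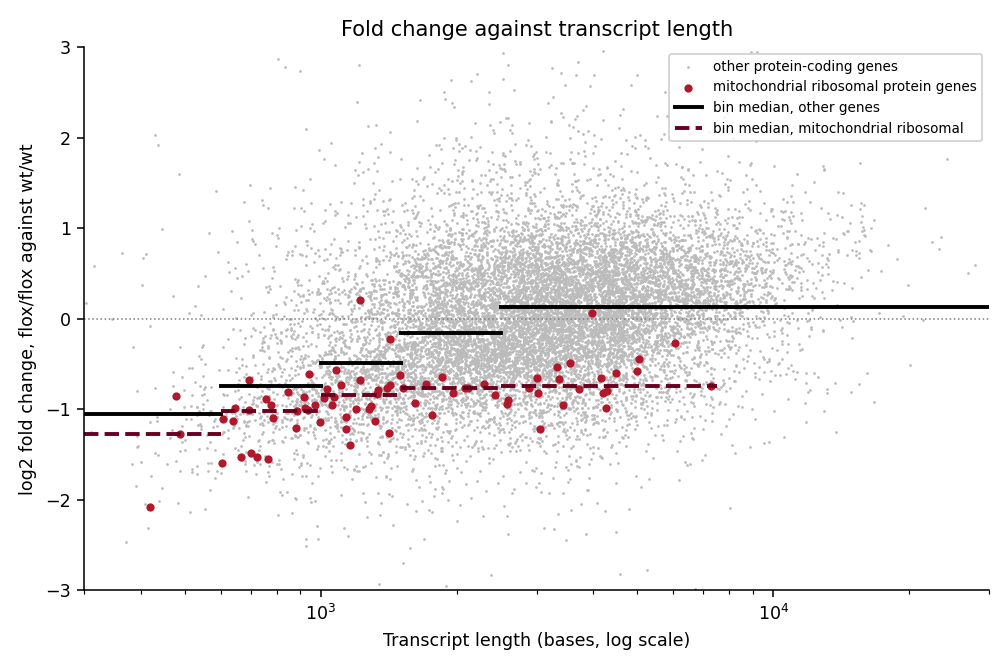
log2 fold change of flox/flox against wt/wt (vertical) against transcript length in bases (horizontal, log scale) for 78 mitochondrial ribosomal protein genes (red) and other protein-coding genes (grey); 46 of 13253 grey points lie outside the axes. Solid lines are medians of the other genes and dashed lines medians of the members in 5 length bins; the dashed lines lie below the solid ones throughout, at -0.74 against 0.14 in the longest bin.

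Of the members, 27 start back to back with another gene on the opposite strand, with at most 1000 bases between the starts or an overlap of at most 200 bases, and 26 of these neighbours were tested. In flox/flox against wt/wt, 25 of the 26 members beside them fell, and their log2 fold changes had a median of -0.88. Among the 26 neighbours 5 fell, 3 rose and 18 did not pass the test, with a median of 0.21, and both counts lie near the 14.7% lower and 15.1% higher of all genes. These members had shorter transcripts, with a median of 1138 bases against 2383 bases for the neighbours, and the difference between the 2 sets was not tested. Both genes fell in 5 pairs. In 1 of them Mrps12 is paired with Sars2, the mitochondrial seryl-tRNA synthetase, which had 5.31, 5.56 and 5.11 CPM in flox/flox libraries, 5.67 and 4.96 CPM in wt/flox libraries, and 7.46, 9.10 and 7.67 CPM in wt/wt libraries (log2 fold change -0.60 with SE 0.13, adjusted p = 0.0135 by edgeR). In the others Mrpl36 lies beside Ndufs6, a subunit of respiratory complex I (-1.36), Mrpl32 beside the proteasome gene Psma2 (-0.94), Mrpl49 beside Fau, which encodes a cytosolic ribosomal protein fused to a ubiquitin-like protein (-0.85), and Mrps27 beside Ptcd2 (-0.53). In 3 pairs the neighbour rose while the member fell: Helq, a DNA helicase, beside Mrps18c (log2 fold change 0.76), Ncapd2, a condensin subunit, beside Mrpl51 (0.79), and Zfp661 beside Mrps5 (0.56). The starts of Mrps18c and Helq lie 29 bases apart, and the level of Helq was 7.76, 7.16 and 6.24 CPM in flox/flox libraries, 6.19 and 6.05 CPM in wt/flox libraries, and 4.21, 4.51 and 3.82 CPM in wt/wt libraries.

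**Figure D4:**
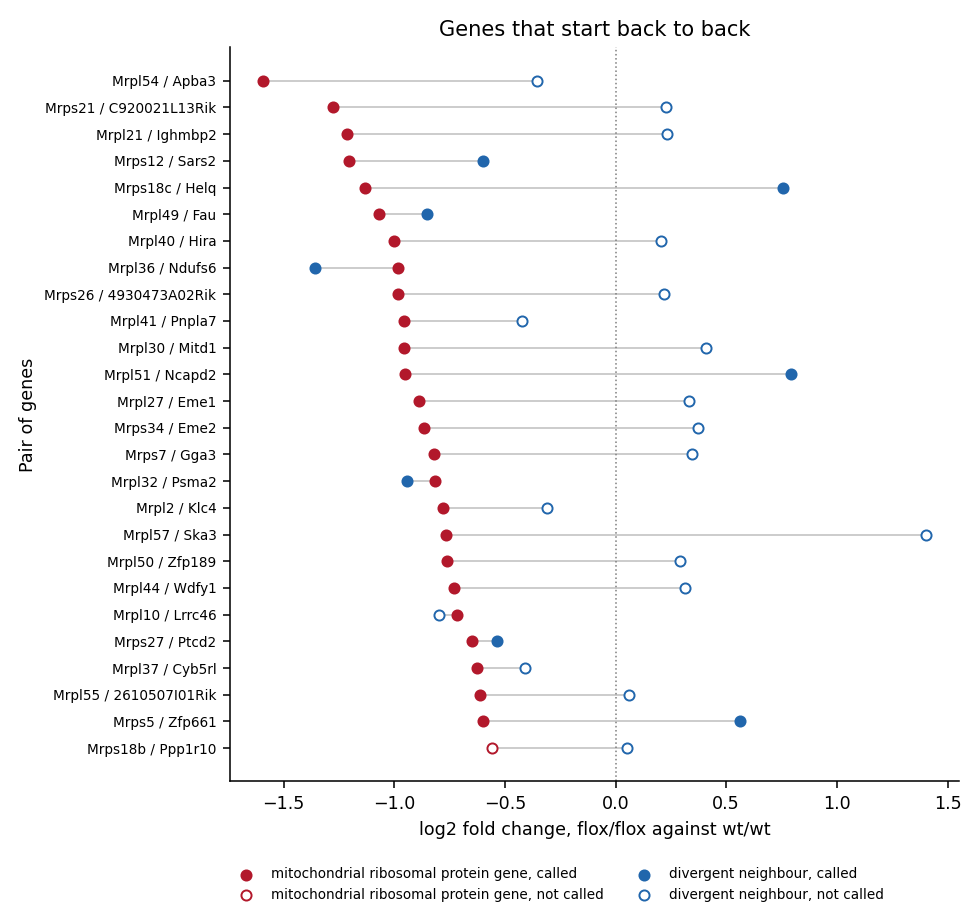
log2 fold change of flox/flox against wt/wt (horizontal) for 26 pairs of genes that start back to back (rows): the mitochondrial ribosomal protein gene in red and its neighbour in blue, joined by a line. Filled points passed the edgeR test at an adjusted p of 0.05; 25 red points are filled and all lie left of 0, while the blue points lie on both sides.

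Reads on the strand opposite to a member were also counted. They made up 11.1% to 11.3% of member reads in flox/flox, 9.64% to 11.0% in wt/flox and 9.23% to 9.69% in wt/wt. In the same model, 54 of the 78 members were lower on the antisense strand in flox/flox than in wt/wt and none higher, where 12.9% of the 12856 genes tested on that strand were lower, and the median log2 fold change was -0.79. In Mrpl48 the antisense share was 44.4%, in Mrpl49 26.9% and in Mrps25 69.6%, and the annotated genes on the other strand there are Rab6a, Syvn1 and Nr2c2. Antisense reads fell in Mrpl48 in flox/flox against wt/wt (log2 fold change -0.85 with SE 0.19, adjusted p = 0.0141 by edgeR), where the sense log2 fold change was -0.80. Those of Mrpl49 had a log2 fold change of -0.33 (SE 0.34, edgeR adjusted p = 0.499). In Mrps25 they had a log2 fold change of 0.26 (SE 0.15, edgeR adjusted p = 0.216). Over all members the antisense share had a median of 6.90%. On the opposite strand, 32 members overlap an annotated gene, so antisense reads there may be sense reads of that gene, which was not tested. Another gene is annotated on the same strand across part of 6 members (Mrpl2, Mrpl33, Mrpl53, Mrps24, Mrps34 and Mrps6), whose counts are uncertain for that reason.

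The counts of other mitochondrial translation genes in flox/flox against wt/wt are read against the 14.7% of all genes that were lower and the 15.1% that were higher. Of 5 ribosome proteins that bear other names, Gadd45gip1, Aurkaip1 and Chchd1 fell in flox/flox against wt/wt, with log2 fold changes of -1.33, -1.06 and -1.08, and Dap3 and Ptcd3 did not pass the test, with log2 fold changes of -0.15 and 0.23. Gadd45gip1 had 10.8, 10.4 and 9.22 CPM in flox/flox libraries, 13.8 and 12.4 CPM in wt/flox libraries, and 24.9, 29.2 and 22.5 CPM in wt/wt libraries. Among 27 genes of ribosome assembly and ribosomal RNA modification 5 fell (18.5%) and 2 rose, with a median of -0.20, so the share that fell lay near that of all genes. The smallest p-values there were those of Mrm2, an rRNA methyltransferase (-1.32), Rbfa, an assembly factor of the small subunit (-0.60), and Gtpbp10, an assembly factor of the large subunit (-0.49). Among 15 translation factors and related genes 5 fell (33.3%) and 2 rose, with a median of -0.24. Slirp, which binds mitochondrial mRNAs, had 5.33, 5.47 and 5.10 CPM in flox/flox libraries, 6.67 and 6.59 CPM in wt/flox libraries, and 12.9, 16.3 and 14.6 CPM in wt/wt libraries (log2 fold change -1.46 with SE 0.12, adjusted p = 0.000809 by edgeR), and the elongation factor gene Tsfm (-0.83) and the recycling factor gene Mrrf (-0.79) fell less.

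Of 20 genes for mitochondrial aminoacyl-tRNA synthetases and glutamyl-tRNA amidotransferase subunits 5 fell (25%) and 1 rose in flox/flox against wt/wt, with a median of -0.17, beside the 14.7% lower and 15.1% higher of all genes. Gatc, an amidotransferase subunit, fell (-1.21), as did Lars2 (-0.98), while Iars2, the isoleucyl-tRNA synthetase, rose (0.54). Iars2 had 84.5, 76.7 and 74.8 CPM in flox/flox libraries, 87.7 and 76.6 CPM in wt/flox libraries, and 55.6, 54.8 and 52.1 CPM in wt/wt libraries. Of 10 genes for replication and transcription of mitochondrial DNA, Polg, the DNA polymerase, rose (0.54) and Tefm, a transcription elongation factor, fell (-0.66). None of 9 transcriptional regulators of mitochondrial genes passed the test with edgeR. An unadjusted edgeR p under 0.05 was found for 2 of the 9, where 42.5% of all genes had one. DESeq2 called 1 of the regulators (higher) and limma-voom 0. The smallest p was that of Gabpb1, a GABP subunit (0.32, edgeR adjusted p = 0.0852), and Nrf1 had 13.5, 12.9 and 10.5 CPM in flox/flox libraries, 11.5 and 12.4 CPM in wt/flox libraries, and 11.5, 9.40 and 8.48 CPM in wt/wt libraries.

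Both other large groups of nuclear genes set beside the members were mostly lower. Cytosolic ribosomal protein genes fell in flox/flox against wt/wt for 81 of 86 tested, with a median log2 fold change of -1.20, and nuclear-encoded respiratory chain subunits for 71 of 80, with a median of -0.94. Of all genes tested 14.7% were lower, with a median of 0.02. In flox/flox against wt/flox the medians of the 2 groups were -0.37 and -0.28, against 0.04 over all genes, with no gene called. Summed levels of the respiratory chain genes averaged 5247 ± 350 CPM in flox/flox (SD, n = 3), 6187 ± 679 CPM in wt/flox (n = 2) and 8534 ± 762 CPM in wt/wt (n = 3). Whether these 2 groups differ from the mitochondrial ribosomal protein genes was not tested.

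**Figure D5:**
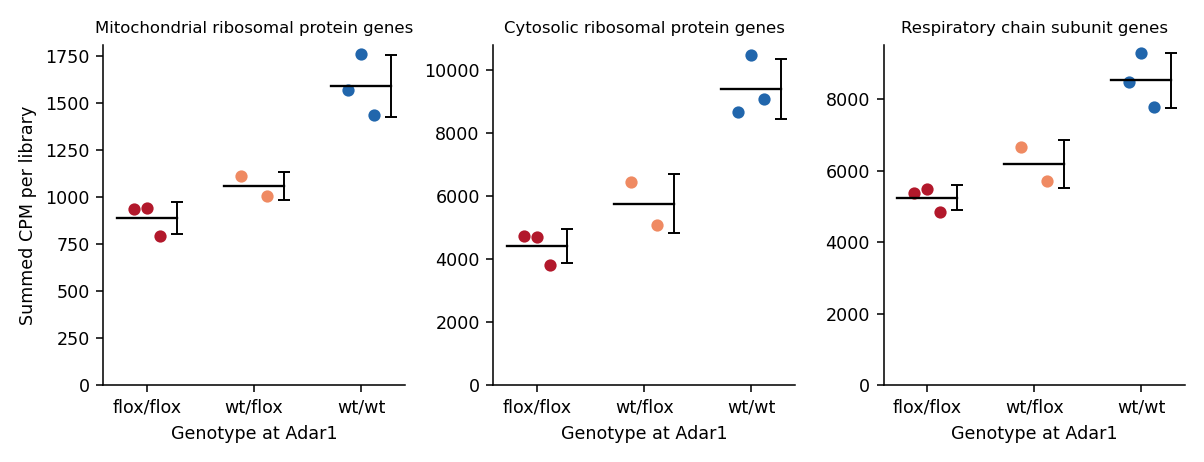
Summed CPM per library (points) for mitochondrial ribosomal protein genes, cytosolic ribosomal protein genes and respiratory chain subunit genes (panels), by genotype at Adar1. Horizontal lines are means and bars 1 SD (n = 3, 2 and 3); in each panel every flox/flox library lies below every wt/flox library, and every wt/flox library below every wt/wt library.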

How the data were processed

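Bulk RNA sequencing of hepatocyte-enriched liver cells gave 8 libraries, 3 flox/flox, 2 wt/flox and 3 wt/wt. The authors deposited raw read counts per gene symbol, sense and antisense apart, per the file headers. GRCm38 (mm10) and DESeq2 are named in the submitters' processing notes. Aligner, counter and annotation: not given in the sources used here. Rows that name no gene were left out of library sizes.

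The test on sense counts was edgeR's quasi-likelihood F test (edgeR 4.0.16, R 4.3.3) after TMM scaling, with genotype as the only term and 14728 genes left by filterByExpr. Adjustment was by Benjamini-Hochberg over all genes tested, two-sided, and 3 contrasts came from 1 fit of all libraries. P-values measure the spread between mice within groups, with 2 or 3 mice each. CPM use TMM-adjusted library sizes, and lengths and neighbours come from GENCODE M21, to which 24366 of 25229 symbols were matched. Promoter windows come from RefSeq (GRCm38.p6).

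In each contrast the genes named are up to 8 called members of largest fold change per direction, or the 4 of smallest p where none was called, the 3 of smallest change, the highest and lowest by level, and Mrpl12, Mrpl11, Mrpl52, Mrps12, Mrps18a to c, Mrps30 and Mrps36. Other lists give up to 3 called genes of smallest p. Other genes named, the neighbour pairs included, were chosen after their values were seen. Members and lists were chosen with earlier results of these data known. Scripts were tested on simulated data. Alternatives used DESeq2 1.42.0, limma-voom 3.58.1, other scalings and filters, sex terms, a replicate block, a length correction, antisense reads and omitted libraries.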

Additional observations from a re-analysis of the deposited data

How the results depend on the processing

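The number of members lower in flox/flox than in wt/wt, 73 as reported, was 69 to 76 with RLE, upper-quartile or library-size scaling, with no filter or one at 1 CPM on average, with DESeq2, limma-voom, labelled sex, sex by transcripts (70, all among the 73), only the 2 groups compared, sense plus antisense counts, or without flox/flox replicates 1 and 2, whose sex labels were contradicted (71). Of all genes, 2169 were lower as reported, 2587 with DESeq2 and 2240 with limma-voom. Without flox/flox replicates 1 and 2, 2915 of all genes were called in either direction. For the other settings above, the share of all genes is not given here. The members' count was 62 to 73 without each library in turn, where 2195 to 4722 of all genes were called in either direction, against 4400 as reported. It was 52 with the trend with transcript length removed (11.3% of all genes lower). On antisense counts, which are reads on the opposite strand, 54 members were lower (12.9% of genes tested lower). Those reads come from the same libraries, so the 54 are not independent of the sense result. With the replicate block together with sex by transcripts the members' count was 56, and the share of all genes in that model is not given here. No member was higher except with the length trend removed, where 1 was. The count for wt/flox against wt/wt, 41 as reported, was 52 with sex by transcripts, with all 41 among them. With upper-quartile scaling it was 62, with library size alone 73, and with the replicate block and sex by transcripts together 0. The shares of all genes called under these settings are not given here, so these counts are not read as results about the members alone. The members' count was 16 with the length trend removed (2.11% of all genes lower). On antisense counts alone, an alternative chosen after seeing the data, it was 18 (4.16% of genes tested lower). Without each library in turn it was 0 to 50, with 0 to 2525 of all genes called, and the cause of this range was not tested. In flox/flox against wt/flox no member was called under any alternative run. Library size alone moved the median of all genes to -0.31 in flox/flox and -0.42 in wt/flox, each against wt/wt, where the members' medians were -1.20 and -0.94. Upper-quartile scaling moved the median of all genes in wt/flox to -0.14. With the replicate number as a block, 74 members were lower in flox/flox and 48 in wt/flox than in wt/wt. The shares of all genes lower in that model are not given here. The replicate numbers follow the labelled ages in each group. Same-numbered flox/flox and wt/wt libraries deviated together with correlations of 0.33, -0.0019 and 0.43, against -0.49 to 0.35 for those of different numbers. The same values split by the sex read from transcripts. They were 0.18 to 0.43 for libraries of the same sex and -0.49 to -0.0019 for those of different sex. The part of sex in these correlations was not tested. So few libraries cannot settle whether the numbers pair the samples. With the numbers of flox/flox replicates 1 and 2 exchanged, as their sex transcripts would allow, the same-numbered correlations would be -0.27, 0.35 and 0.43. The block counts, which were not run that way, could then change. Members that passed the test neither as reported nor under an alternative were given no direction, and their sign differed in 58 of 1800 values of named members.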
